A study of Mus musculus with 12 samples.

Results

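The experiment described here asked what a blocker of glutamate transporters does to cultured adult mouse neural stem cells (NSCs) when no glutamate is added. NSCs from the dentate gyrus (DG) of wild-type C57Bl6J mice were given 1 µM TFB-TBOA, an inhibitor of all excitatory amino acid transporters (panEAAT inhibitor), and 15 min later vehicle (TFBTBOA-Veh, 3 libraries), and were set against NSCs that received vehicle at both steps (Veh-Veh, 3 libraries). RNA was taken after 48 h and measured by bulk RNA-seq, which reads the RNA of all cells of a well together. The members are these 6 of the 12 libraries of the series, taken by their treatment label, and the 14266 of 50600 gene entries whose normalized count averaged at least 10 over the 12 libraries. The other 6 libraries came from NSCs of the same culture type that got 100 µM glutamate after the inhibitor (TFBTBOA-Glut, 3 libraries) or after vehicle (Veh-Glut, 3 libraries), and serve here only to see how the same contrast came out in other wells. All cells were at passage 4, plated at 75000 per well, and grew on laminin in a medium with epidermal growth factor, basic fibroblast growth factor, a B27 supplement and GlutaMAX, a stabilised source of glutamine. NSC lines in this laboratory are made from the pooled DGs of several young adult mice, and the replicates are wells of a plate and not animals, so the p-values measure the spread between wells.

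Excitatory amino acid transporters (EAATs) sit in the plasma membrane and carry glutamate into the cell together with sodium ions, which clears glutamate from the space around neurons and brings carbon and nitrogen into the cell that takes it up. In the DG, stem cells share the glial forms EAAT1 and EAAT2 with astrocytes. TFB-TBOA blocks these carriers without being carried itself. Cultured NSCs divide under growth factors, lay down their own extracellular matrix and respond to the stiffness and composition of that matrix through integrins, the actin cytoskeleton and the transcriptional coactivators YAP and TAZ, which work with TEAD factors.

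The 6 libraries were alike in size and held the markers of NSCs. Their normalized counts summed to between 14900486 and 15132357, with 19284 to 21496 genes above 0. Across genes, replicates correlated at a Pearson's r of 0.972 to 0.974, and libraries of different groups at 0.968 to 0.973. NSC markers were high in every library, with Nes, an intermediate filament of neural progenitors, at 27404 to 28881 normalized counts and Fabp7, a fatty acid binding protein of radial glia, at 23577 to 27029. No gene of the 17 tested on the NSC identity list passed the test (1 had an unadjusted p under 0.05 from limma), and Sox2 and Gfap were low in both groups, at 164 to 203 and 23.0 to 88.5 normalized counts. Several defining genes of other cell types were at or near 0, but not all. Cx3cr1 of microglia and Cdh5 and Cldn5 of endothelium were at 0 in all 6 libraries, and Pdgfrb of mural cells did not exceed 0.998. P2ry12 of microglia was at 14.8 to 46.1 normalized counts, and Kdr of endothelium reached 33.7. Ptprc on the microglia list and Rgs5 on the mural cell and fibroblast list reached 12.6 and 15.8. Astrocyte and neuron lists did not sum to near 0. Among neuron markers, Map2 was at 10556 to 12240 normalized counts. Dcx, Neurod1, Rbfox3, Tubb3 and Prox1 did not exceed 17.0, 16.5, 52.5, 159 and 518. The astrocyte list summed to 29443 to 30622 normalized counts in TFBTBOA-Veh and 29773 to 31746 in Veh-Veh, and the neuron list to 16885 to 18054 and 15989.8 to 18279, with overlap in both. Markers of the oligodendrocyte lineage were also high and differed between the groups, since their 16 genes summed to 50373, 50121 and 47679 in TFBTBOA-Veh against 57708, 56964 and 51688 in Veh-Veh. Most of that sum was Olig1, also made by NSCs in culture, with 44772, 44019 and 41849.6 normalized counts in TFBTBOA-Veh against 51786, 50899 and 46079.9 in Veh-Veh (log2 difference -0.19, adjusted p = 0.107 from limma). Sums over the remaining marker lists overlapped between the groups too, at 300 to 334 normalized counts in TFBTBOA-Veh and 292 to 340 in Veh-Veh for microglia, 80.9 to 103 and 76.3 to 94.7 for endothelium, and 46.3 to 56.8 and 33.9 to 69.7 for mural cells and fibroblasts. No tested gene of these lists or of the astrocyte and neuron lists passed. Many of their genes were below the filter on low values. Tested were 2 of 12 microglia, 3 of 11 endothelial, 1 of 12 mural cell and fibroblast, 10 of 12 astrocyte and 11 of 20 neuron genes. Their members of smallest p were P2ry12 (0.21, adjusted p = 0.924), Flt1 (-1.52, adjusted p = 0.614), Acta2 (0.37, adjusted p = 0.851), S100b (-0.84, adjusted p = 0.152) and Tubb3 (1.03, adjusted p = 0.31 from limma), with 0, 0, 0, 4 and 2 genes at an unadjusted p under 0.05 in those lists. Sox10 and Mbp, which mark committed oligodendrocyte cells, did not exceed 7.99, and the part of this lineage in the results was not tested.

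More genes were higher than lower with the inhibitor. At an adjusted p under 0.05 (limma on log2 of normalized count plus 1, two-sided, Benjamini-Hochberg over all 14266 genes), 132 genes rose and 15 fell, which is 0.925% and 0.105% of the genes tested. Together they make up 1.03% of the genes tested. The 2 groups did not overlap in any of these 147 genes, nor in 16.8% of all genes tested. Among the genes that rose, 37 had more than a 2-fold difference, 47 had 1.5-fold to 2-fold and 48 had less. The fold changes of the 15 that fell were smaller, with 1 beyond 2-fold and 10 under 1.5-fold. The median difference over all genes tested was -0.0023 on the log2 scale, and 7062 of the 14266 lay above 0. The counts fell when a well was removed. With 1 library left out, 29, 69 and 56 genes rose without TFBTBOA-Veh replicate 1, 2 and 3 in turn, and 57, 67 and 81 without Veh-Veh replicate 1, 2 and 3. The genes that fell numbered 2, 5 and 5 without those TFBTBOA-Veh replicates, and 0, 4 and 5 without those Veh-Veh replicates. A set of 27 genes, all of them higher with the inhibitor, kept the call whichever of the 6 libraries was removed.

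**Figure D1:**
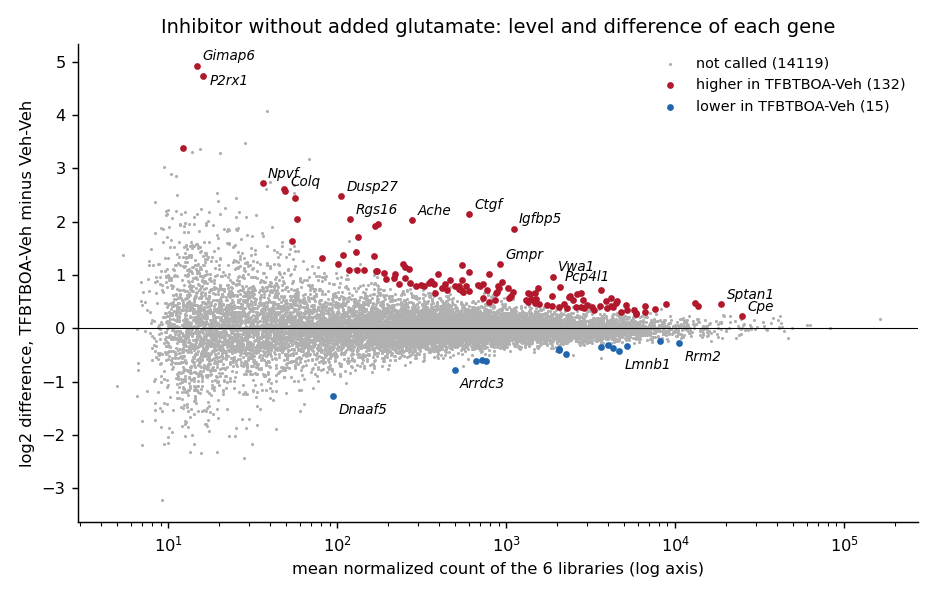
Each point is 1 of the 14266 genes, placed by its mean normalized count over the 6 libraries (log axis) and its log2 difference, TFBTBOA-Veh minus Veh-Veh. The 132 genes that rose are red and the 15 that fell are blue, with Ctgf and Igfbp5 the farthest from 0 among genes above 500 normalized counts. The called falls reach -1.27, while genes that were not called lie as low as -3.23.

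The smallest adjusted p-values belonged to Ctgf and Igfbp5. Ctgf, which encodes connective tissue growth factor, a matrix-bound signalling protein, was at 1052, 900.4 and 978 normalized counts in TFBTBOA-Veh against 217, 219.5 and 226 in Veh-Veh. The lowest library with the inhibitor was thus far above the highest without it, and the log2 difference was 2.14 (standard error 0.122, adjusted p = 4.86e-06 from limma). Igfbp5, a secreted protein that binds insulin-like growth factors and matrix, had 1692, 1775 and 1735 normalized counts in TFBTBOA-Veh and 444, 531 and 457 in Veh-Veh. The 3 wells of each group were close together, and the log2 difference was 1.86 (standard error 0.104, adjusted p = 4.86e-06 from limma). Igfbp5 lies on chromosome 1 from 72857932 to 72874884 of GRCm38. Vwa1, a matrix protein with a von Willebrand domain found near basement membranes, was at 2822, 2404 and 2279 normalized counts with the inhibitor and 1291, 1315 and 1222 without, a log2 difference of 0.97 (standard error 0.0941, adjusted p = 0.00101 from limma). These 3 genes kept their calls with each library left out.

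Ache, the acetylcholinesterase that breaks down acetylcholine, rose together with the gene of its collagen tail. Ache was at 461, 499 and 376 normalized counts in TFBTBOA-Veh against 114, 107 and 103 in Veh-Veh, a log2 difference of 2.02 (standard error 0.168, adjusted p = 0.000234 from limma), and lies on chromosome 5 from 137287519 to 137294466. All wells with the inhibitor were more than 3 times as high as any well without it. Colq, the collagen-like subunit that ties acetylcholinesterase to the basal lamina, was at 102, 80.9 and 71.4 normalized counts against 16.5, 9.54 and 14.7, a log2 difference of 2.57 (standard error 0.362, adjusted p = 0.00767 from limma). Colq was a low-level gene, and its adjusted p reached 0.0586 with 1 library left out, while Ache kept its call in every such fit.

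**Figure D2:**
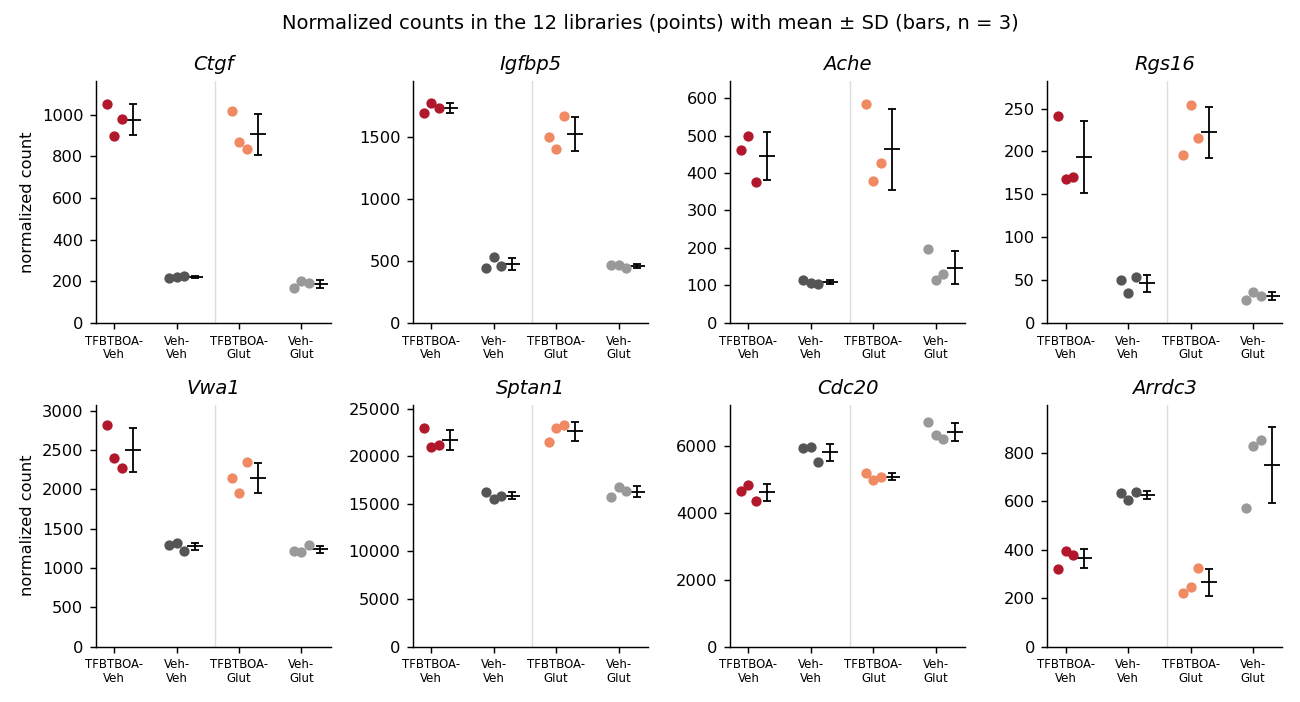
Points are normalized counts of single libraries and bars the mean ± SD of 3 libraries, for 8 genes in TFBTBOA-Veh, Veh-Veh, TFBTBOA-Glut and Veh-Glut, on axes that start at 0. In all 8 the TFBTBOA-Veh points lie apart from the Veh-Veh points, and the pair of groups with glutamate is split the same way.

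The largest differences on the log scale belonged to genes with few reads. Gimap6, a GTPase of the IMAP family, was at 28.4, 33.9 and 26.1 normalized counts in TFBTBOA-Veh and at 0 in the 3 Veh-Veh libraries (at least 9.89-fold higher when each Veh-Veh library is set to the limit of 3 reads that a count of 0 allows, for counting error only). P2rx1, an ATP-gated ion channel, had 35.0, 32.9 and 27.2 normalized counts in TFBTBOA-Veh and 0.871, 0 and 0 in Veh-Veh. Gimap6, P2rx1 and Npvf averaged below 10 without the inhibitor, with and without glutamate, so they passed the filter on low values only through the inhibitor groups. P2rx1 was the only member called of 10 tested genes of P2X and P2Y receptors, where 0.925% of all genes tested rose. The list had a median log2 difference of 0.24. Since P2rx1 was tested only because of the groups where it is high, its call is no support for a change of this list. With glutamate it was at 3.27, 14.9 and 34.6 normalized counts in TFBTBOA-Glut and 0, 0 and 0 in Veh-Glut, and did not pass (adjusted p = 0.094 from limma). Gm12666, a gene model with no role known to the annotation used, Npvf, the precursor of RFamide-related neuropeptides, and Tmem182, a membrane protein gene, followed at log2 differences of 3.37, 2.72 and 2.62. Npvf stood at 57.9, 73.9 and 58.3 normalized counts with the inhibitor and 6.97, 7.42 and 12.6 without. Dusp27, a dual specificity phosphatase-like gene, was at 119, 193 and 227 normalized counts in TFBTBOA-Veh and 30.5, 45.6 and 20.0 in Veh-Veh (log2 difference 2.48, adjusted p = 0.00767 from limma). Of these low genes Dusp27 alone kept its call with every library left out, while the highest adjusted p in such fits was 0.126 for Gimap6, 0.134 for P2rx1, 0.204 for Gm12666, 0.0586 for Npvf and 0.0904 for Tmem182. Dio2, the deiodinase that activates thyroid hormone, had 57.9, 74.9 and 153 normalized counts with the inhibitor and 20.9, 8.48 and 20.0 without, and Rrad, a Ras-related GTPase, had 111, 93.8 and 72.4 against 29.6, 12.7 and 25.3. Their log2 differences were 2.43 and 2.05 (adjusted p = 0.0277 and 0.0235 from limma). Dio2 spread widely among the inhibitor wells, and both lost the call in some fits with a library removed, at an adjusted p of up to 0.131 for Dio2 and 0.139 for Rrad.

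Matricellular proteins and glycoproteins of the matrix gave 3 rises and no fall among 15 tested genes, with a median log2 difference of 0.13. Of all genes tested 0.925% rose and 0.105% fell. Beside Ctgf these were Sparc, a collagen-binding glycoprotein, and Thbs1, thrombospondin, which binds cells and activates latent TGF-beta. Sparc was among the most abundant genes that rose, with 16836, 15358 and 15015 normalized counts in TFBTBOA-Veh and 11908, 11985 and 11223 in Veh-Veh, a log2 difference of 0.43 (standard error 0.0549, adjusted p = 0.00503 from limma). Thbs1 was at 455, 258 and 321 normalized counts against 125, 151 and 163, a log2 difference of 1.20 (adjusted p = 0.0226 from limma, up to 0.108 with 1 library left out). Tnc, tenascin-C, the most abundant member of the list at 36352 to 44436 normalized counts in TFBTBOA-Veh, had a log2 difference of 0.20 that did not pass (adjusted p = 0.37 from limma). The whole list summed to 75628, 67591 and 78190 normalized counts with the inhibitor and 63662, 58865 and 66577 without, so the groups did not overlap. Tnc was the largest part of that sum in TFBTBOA-Veh, and was named after its values were seen.

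Genes of the basement membrane, the laminin, collagen IV and nidogen sheet under cells, lay above 0 for 17 of 19 tested members. Their median log2 difference was 0.37 against -0.0023 over all genes tested, and 8 of the 19 had TFBTBOA-Veh libraries wholly above Veh-Veh, against 9.03% of all genes. Col18a1, which carries the endostatin domain, was the member that passed, at 4346, 4068 and 5233 normalized counts in TFBTBOA-Veh and 2877, 2691 and 2694 in Veh-Veh (log2 difference 0.72, standard error 0.09, adjusted p = 0.0045 from limma). It kept its call with each library left out. Lamc1, the laminin chain shared by most laminins, missed the threshold at a log2 difference of 0.37 (adjusted p = 0.0598), as did Lama4 at 0.58 (adjusted p = 0.0758) and Col4a1 at 0.31 (adjusted p = 0.152 from limma), 3 members chosen after their values were seen. Summed over its 23 genes the list held 31231, 27566 and 32358 normalized counts in TFBTBOA-Veh and 24546, 21753 and 24422 in Veh-Veh. With 1 library left out the median stayed between 0.30 and 0.44. Of all genes tested 0.925% rose. Of 13 other collagens and cross-linking enzymes, Col12a1, a collagen that decorates fibrils, rose (1.01, adjusted p = 0.0233), and of 15 proteoglycans Gpc4, a glypican that carries heparan sulfate, rose (0.42, adjusted p = 0.0179 from limma). Col12a1 lost its call in 5 and Gpc4 in 4 of the 6 fits with a library removed.

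Receptors and linkers that connect the matrix to the cytoskeleton were higher in a few members, where 0.925% of all genes tested rose. Itga5, the integrin subunit that pairs with Itgb1 to bind fibronectin, was at 839.5, 895 and 927 normalized counts in TFBTBOA-Veh and 456, 551 and 541 in Veh-Veh, a log2 difference of 0.78 (standard error 0.116, adjusted p = 0.00891 from limma), and kept its call in every fit with a library removed. It was the sole call among 13 integrin subunits, 10 of which lay above 0. Actn4, an actinin that crosslinks actin at focal adhesions, had 8769, 8111 and 8764 normalized counts with the inhibitor and 6766, 6643 and 6573 without (log2 difference 0.36, adjusted p = 0.0106 from limma), and Myl9, a myosin light chain of contractile cells, had 374, 308 and 429 against 191, 224 and 226 (log2 difference 0.78, adjusted p = 0.049 from limma). Actn4 and Myl9 were the calls among 23 tested genes of the actin cytoskeleton and focal adhesions, whose median was 0.11. Myl9 lost its call with any library removed, and Actn4 with TFBTBOA-Veh replicate 1 removed (adjusted p = 0.0734 from limma). Sptan1, the spectrin chain that lines the plasma membrane together with actin, stood out among abundant genes, at 22948, 20984 and 21189 normalized counts in TFBTBOA-Veh against 16247, 15481 and 15861 in Veh-Veh (log2 difference 0.45, standard error 0.0477, adjusted p = 0.0012 from limma).

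Caveolae are small pits of the plasma membrane coated by caveolins and cavins, and annexins bind membranes when calcium rises. Of 20 tested genes for these proteins 3 rose, 16 lay above 0 and 11 had TFBTBOA-Veh wholly above Veh-Veh, with a median log2 difference of 0.29. Of all genes tested 0.925% rose and 9.03% had TFBTBOA-Veh wholly above Veh-Veh. Ptrf, the cavin that shapes caveolae, was at 3398, 3439.8 and 3378 normalized counts in TFBTBOA-Veh and 2089, 2346 and 2068 in Veh-Veh (log2 difference 0.65, standard error 0.0746, adjusted p = 0.00215 from limma) and kept its call throughout the fits with a library removed. Anxa5 was at 1750.1, 1484 and 1745 normalized counts against 991, 1033 and 1105 (log2 difference 0.67, adjusted p = 0.00865 from limma), and Anxa2 at 6764, 6202 and 6135 against 4948, 5139 and 4992 (log2 difference 0.34, adjusted p = 0.0226 from limma). Without TFBTBOA-Veh replicate 1 the adjusted p of Anxa5 was 0.0586, and Anxa2 lost its call in 5 of the 6 such fits. Cav1, caveolin-1, which was at 71.1, 58.9 and 55.3 normalized counts with the inhibitor and 0, 27.6 and 27.4 without, did not pass (adjusted p = 0.307 from limma). Cav1 was named after its values were seen. The list summed to 31120, 29106 and 29442 normalized counts in TFBTBOA-Veh against 24739, 25317 and 23859 in Veh-Veh.

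Targets of YAP and TEAD gave 2 rises and no fall among 21 tested genes, with a median of 0.15, where 0.925% of all genes tested rose. They were Ctgf and Crim1, a membrane protein that binds bone morphogenetic proteins, at 739, 772 and 707 normalized counts in TFBTBOA-Veh and 493, 525 and 361 in Veh-Veh (log2 difference 0.70, adjusted p = 0.045 from limma, lost with any library removed). Cyr61, the other classical target and the closest relative of Ctgf on the list, was at 489, 389 and 387 normalized counts against 412, 368 and 357 and its groups overlapped (log2 difference 0.15, adjusted p = 0.765 from limma, chosen after its values were seen). Amotl2 and Lats2, which restrain YAP and are also its targets, had log2 differences of 0.27 and 0.26 and did not pass (adjusted p = 0.41 and 0.522 from limma, both named after their values were seen).

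Promoters of 4 genes that rose are shown because they hold letters that TEAD or AP-1 factors are known to bind, as a description of the DNA next to these genes. They were taken from RefSeq on GRCm38.p6, from 250 bases before to 50 bases after the annotated start, and chosen among called genes with 1 promoter entry and at least 1 match. Capitals mark CATTCC or its reverse complement GGAATG (TEAD) and TGANTCA (AP-1), and TGACGTCA (CRE) was also searched on both strands. The 3 motifs were searched separately, and no marked match overlaps another. The TEAD letters begin 233 bases before the start in Igfbp5, 79 in Crim1 and 216 in Actn4, and the AP-1 letters 95 bases before it in Anxa2 and 169 in Actn4.
Igfbp5 (chr1:72874816-72875115, minus strand): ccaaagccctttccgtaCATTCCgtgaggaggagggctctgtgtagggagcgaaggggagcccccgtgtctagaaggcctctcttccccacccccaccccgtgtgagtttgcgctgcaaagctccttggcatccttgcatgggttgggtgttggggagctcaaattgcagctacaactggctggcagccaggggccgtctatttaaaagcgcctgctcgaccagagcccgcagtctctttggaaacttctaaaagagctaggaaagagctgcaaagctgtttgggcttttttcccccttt
Crim1 (chr17:78199998-78200297, plus strand): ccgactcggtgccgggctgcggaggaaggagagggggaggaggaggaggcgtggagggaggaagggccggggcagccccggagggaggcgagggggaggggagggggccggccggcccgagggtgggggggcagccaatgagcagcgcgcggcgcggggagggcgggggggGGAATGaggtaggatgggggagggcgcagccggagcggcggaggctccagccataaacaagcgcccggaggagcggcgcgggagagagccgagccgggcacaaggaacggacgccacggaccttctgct
Anxa2 (chr9:69453433-69453732, plus strand): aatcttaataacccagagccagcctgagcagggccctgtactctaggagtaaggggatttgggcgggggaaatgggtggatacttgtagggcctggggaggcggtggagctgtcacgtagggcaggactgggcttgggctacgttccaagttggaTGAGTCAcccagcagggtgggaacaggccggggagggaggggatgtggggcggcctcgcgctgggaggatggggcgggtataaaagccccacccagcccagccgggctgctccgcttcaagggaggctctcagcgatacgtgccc
Actn4 (chr7:28962283-28962582, minus strand): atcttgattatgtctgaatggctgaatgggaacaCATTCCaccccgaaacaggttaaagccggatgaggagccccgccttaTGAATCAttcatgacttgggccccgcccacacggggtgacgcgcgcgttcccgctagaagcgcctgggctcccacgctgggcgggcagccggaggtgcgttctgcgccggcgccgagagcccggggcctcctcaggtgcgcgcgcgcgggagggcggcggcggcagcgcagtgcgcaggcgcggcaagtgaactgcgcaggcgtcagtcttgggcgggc
Of 10255 tested genes with a promoter entry, 14.2% held CATTCC, 5.83% held TGANTCA and 3.72% held TGACGTCA. A share over the called genes was not computed, since 114 of the 147 (77.6%) had an entry, under the 80% required for it. A match is no evidence of a bound site.

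Lists of growth factor signalling gave single calls, where 0.925% of all genes tested rose. In the pathway of insulin-like growth factors all 10 tested genes lay above 0, with a median of 0.18, and Igfbp5 was the member that rose. Igfbp2, the most abundant binding protein, was at 47954, 44939.6 and 42710.5 normalized counts in TFBTBOA-Veh and 40510.4, 40875 and 34586 in Veh-Veh, without overlap, and did not pass (log2 difference 0.23, adjusted p = 0.14 from limma, chosen after its values were seen). Tgfbr2, the ligand-binding TGF-beta receptor, rose to 1821, 1721 and 1873 normalized counts against 1197, 1163 and 1081 in Veh-Veh (log2 difference 0.65, adjusted p = 0.0058 from limma), the single call among 13 genes of TGF-beta signalling. That list had a median of -0.044 but a summed level that was higher without overlap, at 6453, 6292 and 6692 normalized counts in TFBTBOA-Veh and 5782, 5945 and 5779 in Veh-Veh, with Tgfbr2 its most abundant gene. Angpt2, an angiopoietin that acts on the receptor Tie2 of endothelium, rose (0.34, adjusted p = 0.0168), as did the guidance cue Sema3a (0.50, adjusted p = 0.0226 from limma), which were the calls among 16 vascular factors and 43 axon guidance genes. Among 12 genes of bone morphogenetic protein signalling, Id3, a target that blocks differentiation factors, rose as well (0.38, adjusted p = 0.0217 from limma). Angpt2, Sema3a and Id3 each lost the call in 5 of the 6 fits with a library removed, and Tgfbr2 in none.

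Signalling and housekeeping lists held further single members that rose, where 0.925% of all genes tested rose and 0.105% fell. Gmpr and Pcp4l1, also described here, were on no list. Rgs16, which switches off G protein signals, was at 242, 168 and 170.0 normalized counts in TFBTBOA-Veh and 49.6, 35.0 and 53.7 in Veh-Veh (log2 difference 2.04, standard error 0.257, adjusted p = 0.0045 from limma), the sole call among 12 regulators of G protein signalling, 10 of which lay above 0. Gmpr, which turns GMP back into IMP, was at 1222, 1379.5 and 1245 normalized counts against 663, 537 and 485 (log2 difference 1.20, adjusted p = 0.0012 from limma). Pcp4l1, a small protein related to the calmodulin-binding Pcp4, had 2825, 2559 and 2470.1 normalized counts with the inhibitor and 1524, 1531 and 1516 without (log2 difference 0.78, adjusted p = 0.0012 from limma). These 3 genes kept their calls with each library left out. Cp, the copper-carrying ferroxidase ceruloplasmin, rose by 0.52 among 9 iron genes, Sept4, a septin, by 0.54 among 9 septins, Sv2a, a synaptic vesicle protein, by 0.80 among 22 synaptic genes, and Bcl2l1, which holds back cell death, by 0.44 among 19 apoptosis genes (log2 differences, adjusted p = 0.00992, 0.0216, 0.0432 and 0.0386 from limma). Bcl2l1 lost its call with any library removed, Sv2a in 5, Sept4 in 4 and Cp in 2 of the 6 such fits. Among 23 genes of glucose uptake and glycolysis, Ldhb, a lactate dehydrogenase subunit, rose (0.42, adjusted p = 0.0128, lost in 3 of the 6 fits with a library removed), and Arrdc3, an arrestin-like protein related to the glucose uptake inhibitor Txnip, fell (-0.78, adjusted p = 0.0131 from limma).

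Among the most abundant genes that rose, differences were small and wells were close. Cpe, carboxypeptidase E, which trims peptide hormones and is also secreted, was at 27546, 26290.0 and 26773 normalized counts in TFBTBOA-Veh and 24015, 21737 and 23337 in Veh-Veh, a log2 difference of 0.22 (standard error 0.0459, adjusted p = 0.043 from limma). Trp53i11, a gene induced by p53, was at 14816, 15749 and 15332 normalized counts against 10641, 11395 and 11022 (log2 difference 0.47, adjusted p = 0.0012 from limma). Jam2, a junctional adhesion molecule, had 10512, 9394 and 10808 against 7922, 6836 and 7669 (log2 difference 0.45, adjusted p = 0.0115 from limma). App, the amyloid precursor, Prnp, the prion protein, and Rab6a, a GTPase of the Golgi, rose by 0.30, 0.27 and 0.28 on the log2 scale (adjusted p = 0.0404, 0.049 and 0.0348 from limma). Cpe, App, Prnp and Rab6a lost their calls with any library removed, Jam2 with TFBTBOA-Veh replicate 1 removed (adjusted p = 0.0691 from limma) and Trp53i11 with none.

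Of the 15 genes that fell, Cdc20 was on the mitosis list and Rrm2 on the DNA replication list. Lmnb1, the lamin that supports the nuclear envelope, was at 3966, 4008 and 4027 normalized counts in TFBTBOA-Veh against 5575, 5074 and 5399 in Veh-Veh (log2 difference -0.42, standard error 0.0618, adjusted p = 0.00891 from limma). Cdc20, which activates the anaphase-promoting complex, was at 4661, 4826 and 4335 normalized counts against 5939, 5965 and 5498 (log2 difference -0.33, adjusted p = 0.0358 from limma). Rrm2, the small subunit of ribonucleotide reductase, which makes DNA precursors, was at 9087, 10225 and 9451 against 11438, 11700.5 and 11664 (log2 difference -0.28, adjusted p = 0.0365 from limma). Ncapd2, a condensin subunit that compacts chromosomes, Cep250, which holds centrosomes together, and Fam64a, a gene of proliferating cells, fell by 0.32, 0.61 and 0.35 on the log2 scale (adjusted p = 0.0399, 0.0464 and 0.0399 from limma). Each of these genes lost its call in at least 2 of the 6 fits with a library removed.

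Arrdc3, Gpt2 and Shmt1 were on lists of metabolism, and the others described next were on no list. Arrdc3 was at 321, 396 and 377 normalized counts in TFBTBOA-Veh and 636, 605 and 637 in Veh-Veh, and Asrgl1, an asparaginase, was at 1839, 1836 and 2000.4 against 2635, 2593 and 2698 (log2 difference -0.48, adjusted p = 0.0111 from limma). Gpt2, the mitochondrial aminotransferase that moves nitrogen between glutamate and alanine, was at 7329, 7449 and 7497 normalized counts with the inhibitor and 8843, 8898 and 8599 without (log2 difference -0.24, standard error 0.0503, adjusted p = 0.0457 from limma). Shmt1, the cytosolic enzyme that passes a carbon from serine to folate, was at 1678, 1756 and 1863 against 2241, 2342 and 2356 (log2 difference -0.39, adjusted p = 0.0378 from limma). Gpt2 and Shmt1 were the calls among 26 genes that make amino acids or feed the folate cycle, whose median was -0.015. Of all genes tested 0.105% fell. Dnaaf5, an assembly factor of ciliary dynein, showed the largest fall among the called genes. It was at 56.8, 56.9 and 50.3 normalized counts against 106, 136 and 163 (log2 difference -1.27, standard error 0.245, adjusted p = 0.0333 from limma). Rap1gap, which switches off Rap1, Klf10, a zinc finger factor induced by TGF-beta, and Kcnip3, a calcium sensor, had log2 differences of -0.62, -0.38 and -0.41 (adjusted p = 0.0351, 0.044 and 0.0378 from limma). Gpt2, Shmt1, Dnaaf5, Rap1gap and Kcnip3 lost their calls with any library removed, Klf10 in 5, and Arrdc3 and Asrgl1 in 2 of the 6 fits.

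The cell cycle lists as a whole lay on the low side by small amounts. All 30 tested genes of mitosis were below 0, from -0.33 for Cdc20 to -0.098, with a median of -0.21 on the log2 scale, and 20 of them had TFBTBOA-Veh wholly below Veh-Veh, against 7.74% of all genes tested. Their normalized counts summed to 72120, 76625 and 76898 in TFBTBOA-Veh against 86794, 88745 and 86027 in Veh-Veh, which do not overlap. Of these 30 genes 1 passed the test, Cdc20, where 0.105% of all genes tested fell. Prc1, a midzone protein of the spindle, and Aurkb, the kinase of the chromosomal passenger complex, had differences of -0.28 (adjusted p = 0.0835) and -0.28 (adjusted p = 0.148 from limma, both chosen after their values were seen). In DNA replication all 34 tested genes were below 0, with a median of -0.16, 11 with groups that did not overlap and Rrm2 as the member that passed. That list summed to 79410.1, 81980.4 and 80350.2 normalized counts in TFBTBOA-Veh and 89657, 90972 and 88657 in Veh-Veh. With 1 library left out, 29 to 30 of the mitosis genes and 32 to 33 of the replication genes were below 0. Members of these lists move together from well to well, so their number is not a number of independent observations. In bulk RNA fewer dividing cells and less RNA of these genes per cell cannot be told apart.

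Ribosome biogenesis genes lay on the low side with no gene past the test, and 17 of them had an unadjusted p under 0.05 from limma, as had 1633 of all 14266 genes tested. Of 32 tested genes 27 were below 0 and 15 had TFBTBOA-Veh wholly below Veh-Veh (7.74% of all genes tested did), with a median log2 difference of -0.22. Ncl, nucleolin, the most abundant protein of the nucleolus, was at 14723, 15762 and 14453 normalized counts in TFBTBOA-Veh and 16625, 18288 and 17916 in Veh-Veh and missed the threshold (log2 difference -0.23, adjusted p = 0.0646 from limma). The list summed to 85379.6, 88009.6 and 85110.3 normalized counts with the inhibitor and 95965, 98406 and 98097 without. Of 20 cytosolic aminoacyl-tRNA synthetases, which load amino acids onto tRNAs, 17 were below 0 with a median of -0.13, and none passed, with 5 at an unadjusted p under 0.05 from limma. Vars, the enzyme for valine, had the smallest p (log2 difference -0.26, adjusted p = 0.0598 from limma). Cyclins and kinases of G1, by contrast, were split, with 9 of 19 above 0, a median of -0.017, no call and 1 unadjusted p under 0.05 from limma. Cdk4 had the smallest p of these at -0.16 (adjusted p = 0.236 from limma).

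**Figure D3:**
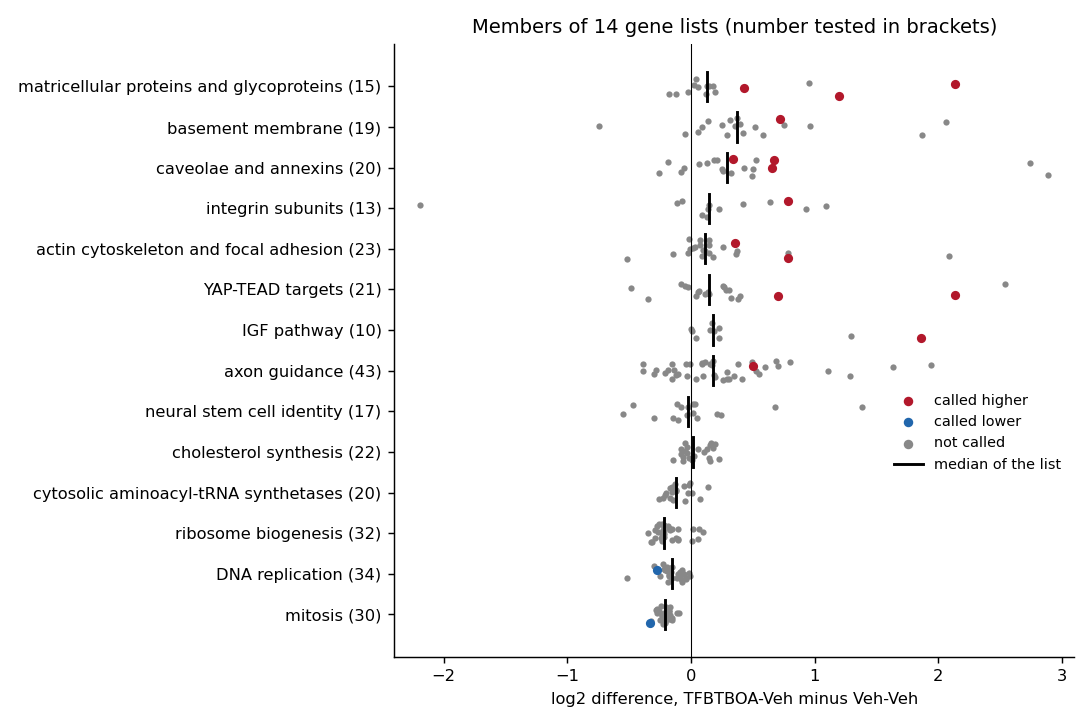
Each point is a tested gene of 1 of 14 lists at its log2 difference, TFBTBOA-Veh minus Veh-Veh, coloured by call, and the black bar is the median of the list. The lists of mitosis and DNA replication form narrow clouds below 0, and ribosome biogenesis lies below 0 for 27 of 32 genes, with medians from -0.22 to -0.16. The matrix and membrane lists lie mostly to the right of 0 with the called members. Members on the left of 0 reach -2.19 for the integrin subunits and -0.74 for the basement membrane.

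**Figure D4:**
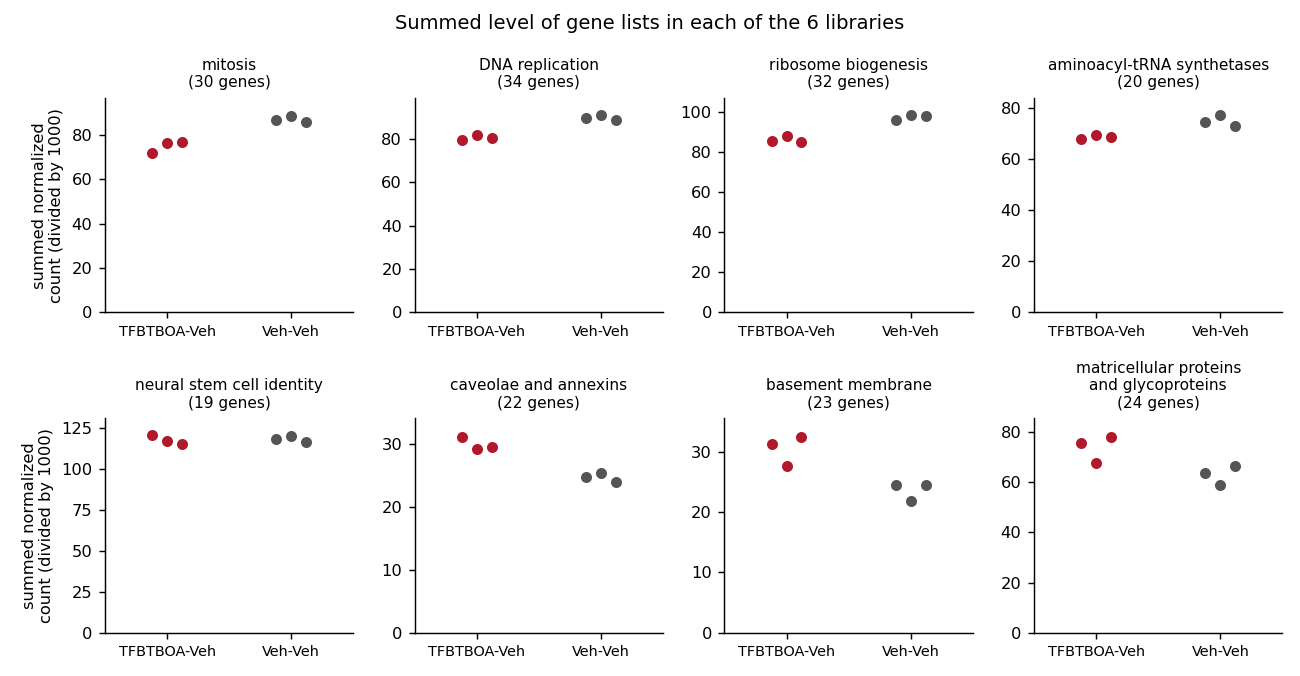
Each point is the summed normalized count, divided by 1000, of the genes of a list in 1 library, for TFBTBOA-Veh and Veh-Veh, on axes that start at 0. The sums of 7 lists do not overlap between the groups, lower with the inhibitor for mitosis, DNA replication, ribosome biogenesis and aminoacyl-tRNA synthetases and higher for the caveolar, basement membrane and matricellular lists, while the NSC identity list overlaps.

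None of the 4 tested genes of the transporters that the drug blocks passed the test, and 1 had an unadjusted p under 0.05 from limma. Slc1a3, which encodes EAAT1, was by far the most abundant, at 31292, 28712 and 32235 normalized counts in TFBTBOA-Veh and 29526, 29049 and 32395 in Veh-Veh, and the groups overlapped (log2 difference 0.02, 95% interval -0.097 to 0.14, adjusted p = 0.94 from limma). Slc1a2, which encodes EAAT2, was at 260.2, 292 and 408 against 368, 276 and 279 and overlapped too (log2 difference 0.044, adjusted p = 0.965 from limma). Slc1a1, which encodes EAAT3, was low but apart, at 80.9, 72.9 and 83.5 normalized counts with the inhibitor and 43.5, 42.4 and 36.8 without, and did not pass (log2 difference 0.93, adjusted p = 0.158 from limma). Slc1a6, which encodes EAAT4, was at 50.3, 37.9 and 13.1 against 27.9, 41.4 and 44.2 with overlap, and Slc1a7, which encodes EAAT5, was listed at 0 in the 6 libraries. No gene passed among 16 glutamate receptor subunits, 17 other amino acid transporters, 22 cholesterol synthesis genes, 15 fatty acid synthesis genes, 16 genes of the integrated stress response, 20 antioxidant genes, 14 Notch genes, 15 immediate early genes and 16 targets of ERK signalling. In the order given, 7, 2, 2, 1, 0, 5, 2, 3 and 3 of their genes had an unadjusted p under 0.05 from limma, against 1633 of all 14266 genes tested. Medians of these lists ran from -0.21 for the glutamate receptors to 0.12 for the immediate early genes. The summed level of the immediate early genes went the other way from their median, at 10628, 10384 and 10009 normalized counts in TFBTBOA-Veh and 11435, 11371 and 10852 in Veh-Veh. The members of smallest p were Grin2b (-2.34, adjusted p = 0.162), Slc6a6 (0.60, adjusted p = 0.169), Cyp51 (0.23, adjusted p = 0.0598), Me1 (-0.27, adjusted p = 0.137), Eif4ebp1 (-0.22, adjusted p = 0.492), Hmox1 (-0.38, adjusted p = 0.0662), Dll1 (0.32, adjusted p = 0.209), Egr1 (-0.25, adjusted p = 0.137) and Etv5 (0.22, adjusted p = 0.112 from limma). A p above the threshold does not show that these genes were equal in the groups.

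The same contrast was measured in wells that also received glutamate, which share no library with the comparison above. There 175 genes rose with the inhibitor and 136 fell (1.23% and 0.953% of the genes tested, 2.18% together). These counts rested on single libraries: 43, 112 and 195 genes rose without TFBTBOA-Glut replicate 1, 2 and 3 in turn, and 218, 54 and 70 without Veh-Glut replicate 1, 2 and 3. Those that fell numbered 19, 55 and 226 without these TFBTBOA-Glut replicates, and 223, 16 and 21 without these Veh-Glut replicates. Of the 132 genes that rose without glutamate, 129 also had a positive difference in TFBTBOA-Glut minus Veh-Glut and 65 passed the test there, which is 49.2% of the 132 and 37.1% of the 175. Of the 15 that fell, 14 also had a negative difference and 6 passed, 40% of the 15 and 4.41% of the 136. In the other direction, 170 of the 175 were above 0 without glutamate, with a median log2 difference of 0.45. Likewise 116 of the 136 were below 0 without glutamate, with a median of -0.17. Of all genes tested 49.5% lay above 0 without glutamate and 51.3% with it. No gene passed in opposite directions. Ctgf was at 1019, 868 and 834 normalized counts in TFBTBOA-Glut and 167, 201 and 192 in Veh-Glut (log2 difference 2.27), and Igfbp5 at 1504, 1402 and 1668 and 467, 467 and 439 (1.73), with an adjusted p of 3.05e-05 for each from limma. Both pairs of groups were again far apart. Ache (1.67), Rgs16 (2.79), Gmpr (1.29), Vwa1 (0.79), Sptan1 (0.47), Col18a1 (0.72), Ptrf (0.87) and Colq (2.28) also rose there, and Arrdc3 (-1.50), Cdc20 (-0.34), Gpt2 (-0.43), Klf10 (-0.57), Ncapd2 (-0.52) and Fam64a (-0.49) were the 6 that also fell (log2 differences).

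**Figure D5:**
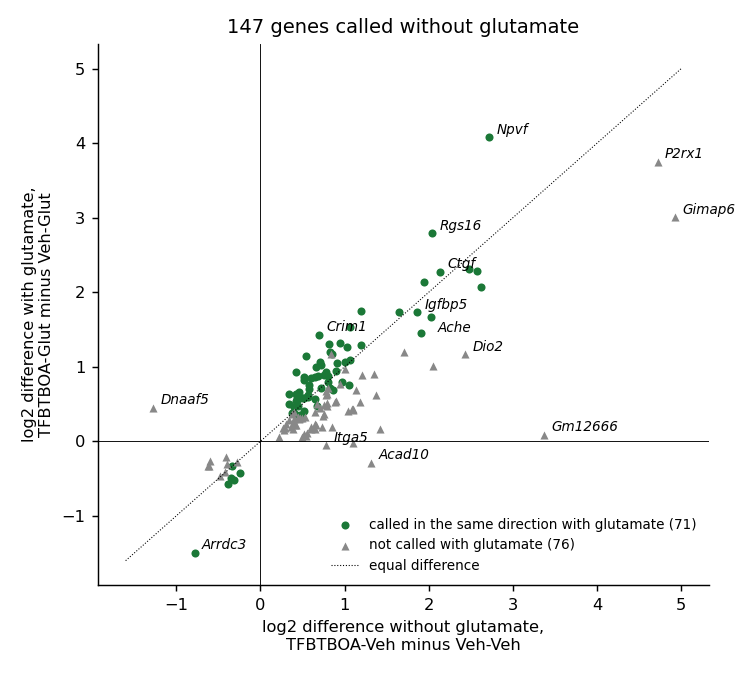
Each point is 1 of the 147 genes called without glutamate, at its log2 difference without glutamate (TFBTBOA-Veh minus Veh-Veh) and with it (TFBTBOA-Glut minus Veh-Glut). The 71 genes called in the same direction in both are round and green, and apart from Dnaaf5, Acad10, Itga5 and Nxpe3 the points lie on the same side of 0 on both axes.

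Some genes called without glutamate had quite another difference with it, though none of the 147 passed the test of the difference between the 2 effects, which 2 of all 14266 genes (0.014%) did. Itga5 had a log2 difference of 0.78 without glutamate and -0.051 with it (adjusted p of the difference = 0.234 from limma's interaction term over 12 libraries). Dnaaf5 was lower without glutamate, at -1.27, and at 0.45 with it (adjusted p of the difference = 0.393). Gm12666 had 3.37 and 0.09, and Sparc, in the other direction, 0.43 and 0.92, with an adjusted p of the difference of 0.117 for each from limma. Sept4 (0.54 and 1.15) and Crim1 (0.70 and 1.43) were likewise larger with glutamate, at an adjusted p of the difference of 0.181 and 0.384 from limma. In all, 28 of the 132 and 2 of the 15 had an unadjusted p under 0.05 for this difference. These genes were chosen by the effect without glutamate, which is itself a part of the difference. The counts therefore cannot show whether glutamate changed the effect. The cell cycle lists kept their side, with 30 of 30 mitosis genes and 31 of 34 replication genes below 0 with glutamate and medians of -0.27 and -0.21.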

How the data were processed

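RNA was measured by bulk RNA-seq (poly(A) RNA, SMART-Seq HT libraries, 12 libraries, 3 wells in each of 4 groups). Per the labels and methods, the authors called bases with CASAVA 1.8.2, aligned with HISAT2 2.0.6 and counted reads per gene with featureCounts of Subread. The methods name a mouse genome while the processing notes name a human build, and the counting is described as stranded although the kit does not mark strand, so overlapping and antisense genes cannot be told apart. The authors deposited gene counts divided by 1 size factor per library, a signal that is comparable between libraries and is called normalized count here. Recovered reads numbered 13064545 to 18372691 in the 10 of 12 libraries from which whole reads were recovered, with a tolerance of 0.05 reads.

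Genes with a mean of at least 10 normalized counts over 12 libraries were kept, log2 of the value plus 1 was fitted with limma 3.58.1 (R 4.3.3, trended variance, only the groups compared), and p-values were adjusted by Benjamini-Hochberg over all genes tested. Because 1 was added before the logarithm, differences of genes with few reads come out too small. The difference of effects was an interaction term over the 12 libraries. The scripts were tested on simulated data. Alternatives were other pseudocounts (0.5 and 5), no filter, a minimum of 50, all 12 libraries in 1 fit, a replicate block, TMM scaling (edgeR 4.0.16), each library left out and, added after seeing the data, precision weights. Coordinates are from GRCm38 annotation, matched by gene for 144 of the 147 called genes.

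Named genes were called genes whose groups do not overlap and that have the largest rise or fall, the smallest adjusted p or the highest level in each direction, the called members of each list described, or the member of smallest p where none was called, and the 5 transporters. Other names are marked in the text. Some genes that this rule names are not reported here. The comparison, its members and the 43 gene lists were chosen with earlier results of these data known.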

Additional observations from a re-analysis of the deposited data

Results flagged for a closer look

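The inhibitor effect differed between wells with and without glutamate, by limma's interaction term over 12 libraries, in 2 genes of cholesterol synthesis. For Cyp51 the effect with glutamate minus the effect without was -0.54 on the log2 scale (standard error 0.0765, adjusted p = 0.0263 from limma). Cyp51 was at 10173, 10017 and 9936 normalized counts in TFBTBOA-Veh and 8637, 8317 and 8802 in Veh-Veh, and its difference with glutamate was -0.31 (adjusted p = 0.0396 from limma). For Hmgcs1 the difference of the effects was -0.59 (standard error 0.0840, adjusted p = 0.0263 from limma), with an inhibitor effect of 0.05 without glutamate and -0.54 with it (adjusted p = 0.784 and 0.0032 from limma). Cyp51 averaged 10042 normalized counts in TFBTBOA-Veh, 10078 in TFBTBOA-Glut, 8585 in Veh-Veh and 12478 in Veh-Glut. Hmgcs1 averaged 13186, 12698, 12726 and 18410 in the same order. In both genes the vehicle groups lay further apart than the inhibitor groups.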

How the results depend on the processing

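Against 132 genes higher and 15 lower, a replicate block gave 245 and 80, of which 131 and 15 were shared, and no filter on low values gave 9 lower. The labels do not say what the replicate numbers stand for. Each number covers a run of consecutive library numbers that holds all 4 groups, so it may mark an order of handling, which was not tested. Same-numbered libraries correlated at only 0.032, 0.024 and 0.067 in their deviations from the group means. Each TFBTBOA-Veh library correlated best with its own number. Of the genes called in the same direction with glutamate (65 higher, 6 lower), the block gave 111 and 32, no filter 1 lower, and a minimum of 50 or all 12 libraries in 1 fit 11 lower each. The genes whose inhibitor effect differed with glutamate numbered 2, against 14 with the block and 0 without a filter. In the contrast with glutamate, 175 genes were higher and 136 lower, against 376 and 351 with all 12 libraries in 1 fit, and 230 and 229 with the block. The cause was not tested. With 1 library left out, 29 to 81 genes were higher, 0 to 5 lower, 21 to 62 higher and 0 to 8 lower in both contrasts, and 0 to 2 differed in effect. Fewer samples enter these fits. Of 59 genes named and called, 15 kept the call with each of the 6 libraries left out, 16 lost it in all 6 and 0 reversed, and 98 of the 147 called genes kept it in the 8 other alternatives. Of 23 named genes that were not called, 9 were called in at least 1 alternative. Count tests were not run, because whole reads were not recovered from TFBTBOA-Veh replicates 2 and 3. With 3 wells a group, the median standard error was 0.158 on the log2 scale, which limits small differences.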

Other observations

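Several enzyme families that stood out after the values were seen are given as counts only, beside 0.925% of all genes tested that rose and 0.105% that fell. Of 15 tested phosphodiesterases of cyclic nucleotides, Pde1b, Pde3a and Pde9a rose with the inhibitor and none fell, and the median log2 difference was 0.06. Of 10 calmodulin-dependent kinases, which respond to calcium, Camk1, Camk2d and Camkk1 rose. Of 31 regulatory subunits of protein phosphatase 1, Ppp1r16b, Ppp1r1a and Ppp1r3c rose, with 16 above 0. Of 16 ADAMTS proteases, which cut matrix proteins, Adamts1 and Adamts16 rose. Of 4 class IIa histone deacetylases, Hdac5 and Hdac9 rose and 4 lay above 0, with a median of 0.55.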
